A study of Mus musculus with 8 samples.

Results

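The genes described here are 41 cell cycle genes, chosen by symbol from the 32285 genes in the count matrices of immune cells from the posterior mouse eye. Of these, 17 serve DNA synthesis and are named S members, 22 serve G2 and mitosis and are named G2/M members, and 2, Stmn1 and Hmgb2, are linked to proliferation but were placed in neither list. All 41 had at least 20 unique molecular identifiers (UMIs, tags that count single transcripts) in every pair of libraries compared over all cells. The questions were which immune lineages expressed the genes together, how S members compared to G2/M members, and how laser-treated eyes compared to control eyes in each genotype.

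A dividing cell passes through G1, S, G2 and mitosis. In late G1 the E2F factors are released from retinoblastoma proteins and switch on genes for licensing and copying DNA, among them the Mcm helicase, the sliding clamp Pcna and the enzymes that make nucleotides. Genes for chromosome condensation, the spindle and division follow in G2 and mitosis, and are repressed in resting cells through a promoter element named CHR. Many of their promoters also hold an element named CCAAT. Tissue macrophages and microglia can renew locally, dendritic cells descend from precursors that still divide in tissue, and mature neutrophils and naive B cells are resting cells.

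Each of the 4 groups was 1 library of pooled cells from female mice aged 10 to 12 weeks, and no group had a replicate. Nr4a1-/- laser and WT laser eyes received 8 focal laser burns, a model of choroidal neovascularization, and were taken on day 3 from 11 to 12 mice per group. Nr4a1-/- control and WT control eyes received no laser and came from 22 mice per group. The mutant line carries the Nr4a1tm1Jmi allele on a B6;129S2 background per the study's methods, whereas WT mice were C57BL/6J and the labels give C57BL/6J for both. Genotype and strain therefore cannot be told apart. Nr4a1 is a nuclear receptor needed for non-classical monocytes, and the allele acts in every cell. Live CD45+ cells were enriched and sorted, and antibody-derived tags (ADTs, DNA barcodes on antibodies) were counted in the same cells. The Nr4a1-/- control library carries another library series number than the other libraries, so a difference in handling cannot be told apart from its group.

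Of 11624 barcodes, 11223 were kept, with 1649 cells in Nr4a1-/- laser and 3791 in WT laser, against 2020 in Nr4a1-/- control and 3763 in WT control. Depth differed between libraries, with the lowest median (3676 UMIs per kept cell) and total (7848548 RNA UMIs) in Nr4a1-/- laser and the highest (7618 and 38052948) in WT laser. The targeted gene Nr4a1 was at 54.9 counts per 1000000 UMIs (CPM) in Nr4a1-/- laser against 278 CPM in WT laser, and at 90.7 CPM in Nr4a1-/- control against 310 CPM in WT control. It was therefore lower in both mutant libraries but not absent, and whether the sequenced 3' ends lie outside the disrupted part of the allele was not known from the sources used here. Between 6 and 13 barcodes of each library recurred in another library. Lineages were assigned from fixed marker genes and are called "-like". None of the 11 lineages checked had a marker of another lineage's scored list among its 10 leading genes. Cells were gated on those same lists, so this is not an independent check of the gates. Ly-6G ADT had medians above those of every other lineage in neutrophil-like cells, whereas NK-1.1 ADT had a median of 0 or 1 even in NK-like cells. All intervals below are exact 95% intervals that cover counting error only, and those on summed UMIs are too narrow because the UMIs of 1 cell are not independent.

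Promoter sequence is shown first because the S and G2/M members differ in it. Promoters of 34 of the 41 members were matched by symbol in RefSeq sequence for GRCm38.p6, and motifs were searched on both strands from 250 bases before to 50 bases after the start. The E2F letters TTTCCCGC, TTTCGCGC, TTTGCCGC or TTTGGCGC were found for 7 of 14 S members (50%) and 1 of 19 G2/M members (5.26%), against 2.61% of 27025 genes with a promoter. The CHR letters TTTGAA were found for 1 of 14 S members (7.14%) and 14 of 19 G2/M members (73.7%), against 20.2% of all genes. CCAAT was found for 9 of 14 S members (64.3%) and 17 of 19 G2/M members (89.5%), against 41.1% of all genes. CHR and CCAAT letters together were found for 14 of 19 G2/M members and for 8.97% of all genes. A match is a description of the letters and not a bound site.

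The 150 bases before the start are printed for 2 S members and 5 G2/M members, 5′ to 3′ on the gene's own strand, with every motif match in capitals. Mcm6 (helicase subunit), Cdk1 (the mitotic kinase), Top2a (topoisomerase of mitotic chromosomes), Ube2c (ubiquitin carrier of the anaphase-promoting complex) and Kif11 (spindle motor) carry the letters typical of their list. Pcna and Cenpa (centromeric histone) carry CCAAT but no E2F or CHR letters in this window, though Cenpa has CHR letters in the longer window searched. Their UMIs were spread over resting cells as described further on, but letters and spread did not go together in every member. Birc5 has no match in the longer window, yet most of its UMIs lay in cells with many other members, whereas most of those of Mcm6 did not. The relation of letters to spread was not tested.
Mcm6, S member, chr1:128359706-128359855, minus strand, E2F letters at -110, -106 and -47: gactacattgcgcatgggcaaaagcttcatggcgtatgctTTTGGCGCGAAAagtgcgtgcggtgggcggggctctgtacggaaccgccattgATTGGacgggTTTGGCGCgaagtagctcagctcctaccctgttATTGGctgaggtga
Pcna, S member, chr2:132253181-132253330, minus strand, CCAAT at -87: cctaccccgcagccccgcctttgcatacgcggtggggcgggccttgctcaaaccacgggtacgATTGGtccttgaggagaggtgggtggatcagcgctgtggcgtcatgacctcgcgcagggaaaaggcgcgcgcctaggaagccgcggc
Cdk1, G2/M member, chr10:69352913-69353062, minus strand, CHR at -71 and -15 and E2F letters at -131: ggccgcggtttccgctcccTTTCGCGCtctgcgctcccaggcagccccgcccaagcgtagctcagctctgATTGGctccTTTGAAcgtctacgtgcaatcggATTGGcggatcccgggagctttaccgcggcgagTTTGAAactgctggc
Top2a, G2/M member, chr11:99024190-99024339, minus strand, CHR at -23: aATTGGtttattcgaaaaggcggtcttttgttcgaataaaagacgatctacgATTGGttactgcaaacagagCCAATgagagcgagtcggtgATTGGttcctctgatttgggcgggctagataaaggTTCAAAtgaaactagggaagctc
Ube2c, G2/M member, chr2:164769779-164769928, plus strand, CHR at -29: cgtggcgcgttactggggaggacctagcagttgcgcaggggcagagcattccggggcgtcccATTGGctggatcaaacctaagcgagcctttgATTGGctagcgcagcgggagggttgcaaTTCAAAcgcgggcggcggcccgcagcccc
Kif11, G2/M member, chr19:37376232-37376381, plus strand, CHR at -19: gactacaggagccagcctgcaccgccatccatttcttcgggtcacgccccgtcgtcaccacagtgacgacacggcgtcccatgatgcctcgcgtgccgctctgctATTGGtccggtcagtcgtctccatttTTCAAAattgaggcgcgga
Cenpa, G2/M member, chr5:30666736-30666885, plus strand, CCAAT at -109 and -86: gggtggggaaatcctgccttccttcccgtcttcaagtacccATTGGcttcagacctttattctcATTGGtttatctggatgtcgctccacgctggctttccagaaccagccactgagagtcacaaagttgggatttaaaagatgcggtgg

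More cells expressed the genes together in laser-treated eyes than in control eyes of both genotypes. A cell was counted as cycling when at least 4 of the 22 G2/M members or at least 5 of the 17 S members had a UMI. By this count 110 of 1649 cells (6.67%, 5.51 to 7.98) were cycling in Nr4a1-/- laser and 54 of 2020 (2.67%, 2.01 to 3.47) in Nr4a1-/- control, a ratio of 2.50 (1.79 to 3.52). In WT, 270 of 3791 cells (7.12%, 6.32 to 7.99) were cycling in the laser library and 121 of 3763 (3.22%, 2.68 to 3.83) in the control library, a ratio of 2.21 (1.78 to 2.77). The shares of the laser and control libraries do not overlap within counting error in either genotype.

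A stricter count of detected genes gave a smaller group of cells. Most cells had few members of either list, and a sparse tail of cells had 8 or more. No gap marked 8, since in WT laser 24 cells had 7 S members and 21 had 8. A second count of cells with at least 8 members of either list was added after seeing the data, and such cells are called 8-gene cells. There were 76 (4.61%) in Nr4a1-/- laser and 142 (3.75%) in WT laser, against 23 (1.14%) in Nr4a1-/- control and 52 (1.38%) in WT control. The laser to control ratio was then 4.05 (2.51 to 6.76) in Nr4a1-/- and 2.71 (1.96 to 3.80) in WT. Close to the first threshold, 11 cells in Nr4a1-/- laser and 65 in WT laser, against 23 in Nr4a1-/- control and 44 in WT control were just inside it. Just outside it were 41 cells in Nr4a1-/- laser and 222 in WT laser, against 80 in Nr4a1-/- control and 120 in WT control, so that count rests in part on cells with few detected members.

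**Figure D1:**
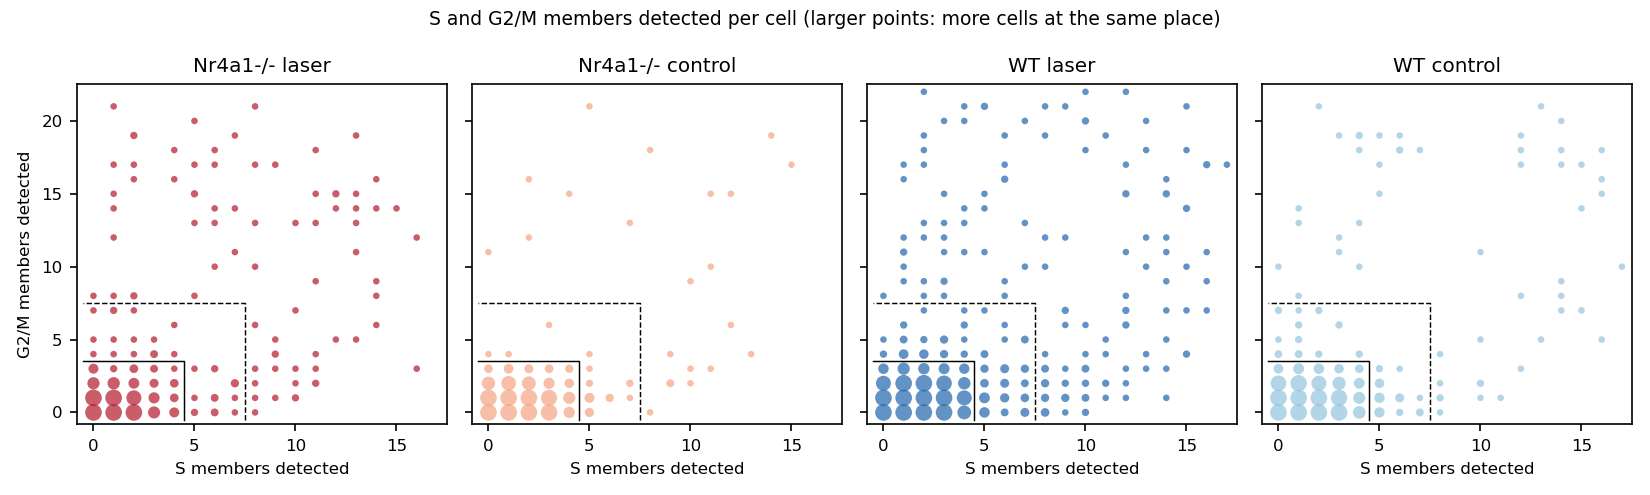
Number of S members (horizontal axis) and G2/M members (vertical axis) with at least 1 UMI in each kept cell, 1 panel per library, with larger points for more cells at the same place. Cells outside the solid line were counted as cycling (110 in Nr4a1-/- laser, 54 in Nr4a1-/- control, 270 in WT laser, 121 in WT control) and cells outside the dashed line as 8-gene cells (76 in Nr4a1-/- laser, 23 in Nr4a1-/- control, 142 in WT laser, 52 in WT control).

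Conventional dendritic cells, mixed phagocytes, macrophages, microglia, T cells and NK cells all held 8-gene cells, at different shares. Over the 4 libraries, 12.8% of cDC1-like cells (28 of 219) and 8.57% of cDC2-like cells (39 of 455) were 8-gene cells. The small progenitor-like and plasma cell-like classes had 6 of 34 (17.6%) and 6 of 53 (11.3%), whereas migratory DC-like cells had 2 of 119 (1.68%) and plasmacytoid DC-like cells 0 of 43. The share was 3.14% in macrophage-like cells, 3.01% in microglia-like cells, 2.36% in T-like cells and 2.28% in NK-like cells. Resting lineages give the background of the call, with 3 of 1804 B-like cells (0.166%), 1 of 487 neutrophil-like cells (0.205%) and 3 of 552 classical monocyte-like cells (0.543%). The pooled shares in cDC1, cDC2, macrophage, microglia, T and NK-like cells were thus more than 10 times those of B-like and neutrophil-like cells. Of these, only the cDC1-like and cDC2-like shares were also more than 10 times that of classical monocyte-like cells. In Nr4a1-/- laser alone, the shares of B-like (1.85%) and neutrophil-like cells (1.61%) were close to that of T-like cells (1.80%). Depth was not held equal here, and WT laser medians were 16684 UMIs in cDC1-like and 4260 in B-like cells. In cells thinned to 2000 UMIs, WT laser cycling shares were 6.45% in cDC1-like, 3.13% in cDC2-like and 4.74% in microglia-like cells. In WT control they were 9.43%, 7.41% and 1.74%. B-like cells then had 0 of 345 in WT laser and 2 of 76 in Nr4a1-/- laser. Neutrophil-like cells had 0 of 136 and 2 of 26. Thinning thus changed the order of lineages in WT laser.

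Microglia-like cells, the resident phagocytes of the retina, had a higher share in laser in both genotypes. In Nr4a1-/-, 7 of 143 cells (4.90%) were 8-gene cells in the laser library and 1 of 220 (0.455%) in the control library, a ratio of 10.8 with an interval of 1.38 to 485. In WT, 22 of 402 (5.47%) were 8-gene cells in the laser library and 4 of 366 (1.09%) in the control library, a ratio of 5.01 (1.70 to 19.99). By the first count the ratios were 7.69 (1.64 to 72.2) in Nr4a1-/- and 2.28 (1.13 to 4.88) in WT. These intervals lie above 1 in both genotypes, and the wide interval of the mutant pair reflects the single 8-gene cell of its control library.

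Macrophage-like cells had 15 of 341 8-gene cells (4.40%) in Nr4a1-/- laser and 5 of 179 (2.79%) in Nr4a1-/- control, a ratio of 1.57 (0.544 to 5.54). In WT the counts were 21 of 617 (3.40%) in laser and 5 of 329 (1.52%) in control, a ratio of 2.24 (0.822 to 7.60). Both intervals include 1, so a difference was not detectable at this depth. The class also differed in make-up. Cells of monocyte-derived type were 127 of 341 in Nr4a1-/- laser and 10 of 179 in Nr4a1-/- control, and 210 of 617 in WT laser and 18 of 329 in WT control. Within the laser libraries, macrophage-like cells with markers of resident macrophages and those with markers of monocyte-derived macrophages had like shares. In Nr4a1-/- laser, 9 of 214 resident-type and 6 of 127 monocyte-derived-type cells were 8-gene cells, and in WT laser 14 of 407 and 7 of 210 were. Cells with high scores on more than 1 phagocyte list, kept apart as mixed phagocytes, had 9 of 75 (12%) in Nr4a1-/- laser, 11 of 128 (8.59%) in WT laser, 2 of 35 (5.71%) in Nr4a1-/- control and 0 of 43 in WT control.

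Dendritic cells had 8-gene cells in every library. Among cDC1-like cells, which cross-present antigen, there were 9 of 51 (17.6%) in Nr4a1-/- laser, 9 of 63 (14.3%) in WT laser, 4 of 45 (8.89%) in Nr4a1-/- control and 6 of 60 (10%) in WT control. Among cDC2-like cells, which present antigen to CD4 T cells, there were 9 of 106 (8.49%) in Nr4a1-/- laser, 20 of 194 (10.3%) in WT laser, 5 of 71 (7.04%) in Nr4a1-/- control and 5 of 84 (5.95%) in WT control. Taking both together, the share was 11.5% in Nr4a1-/- laser and 11.3% in WT laser, against 7.76% in Nr4a1-/- control and 7.64% in WT control. For each of the 4 laser to control ratios of these cells the interval includes 1. At equal depth, by the first count in cells thinned to 2000 UMIs, the WT ratio was 0.684 (0.136 to 3.18) in cDC1-like and 0.422 (0.113 to 1.58) in cDC2-like cells. These values rest on 4 cycling cells in laser and 5 in control among cDC1-like cells and 6 in each among cDC2-like cells, and thinning also left out shallow cells.

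Among lymphoid cells, the NK-like share was higher in laser in both genotypes, with an interval above 1 by 1 of the 2 counts in each, and for T-like cells as a whole every laser to control interval included 1. NK-like cells had 6 of 115 8-gene cells (5.22%) in Nr4a1-/- laser and 0 of 183 in Nr4a1-/- control. That 0 allows a share of up to 1.64% when read as up to 3 counts, and up to 2.00% by the exact interval. In WT they had 10 of 284 (3.52%) in laser and 5 of 341 (1.47%) in control, a ratio of 2.40 (0.748 to 8.95). By the first count the NK-like ratio was 3.18 (0.853 to 14.4) in Nr4a1-/- and 3.40 (1.28 to 10.5) in WT. T-like cells had 3 of 167 8-gene cells (1.80%) in Nr4a1-/- laser, 18 of 579 (3.11%) in WT laser, 4 of 341 (1.17%) in Nr4a1-/- control and 14 of 564 (2.48%) in WT control. Among CD8-type T-like cells, the first count gave 3 of 65 in Nr4a1-/- laser and 11 of 141 in Nr4a1-/- control, a ratio of 0.592 (0.106 to 2.24), and 26 of 276 in WT laser and 12 of 266 in WT control, a ratio of 2.09 (1.02 to 4.54). Of the 39 8-gene T-like cells, 66.7% had a Cd8a UMI, against 33.1% of T-like cells that were not cycling. Detection follows depth, and 8-gene T-like cells were deeper, with a median of 12424 UMIs against 5836 in WT laser. The level of Cd8a is given further on. B-like cells had 3 of 162 in Nr4a1-/- laser and 0 of 371 in WT laser, 0 of 473 in Nr4a1-/- control and 0 of 798 in WT control, and the mutant ratio had a lower bound of 1.21.

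Across the 12 lineages compared, the 8-gene share was higher in laser for 10 and equal for 2 in each genotype, with an interval above 1 for 3 lineages in Nr4a1-/- and 1 in WT. By the first count it was higher for 9, lower for 2 (migratory DC-like and T-like cells) and equal for 1 in Nr4a1-/-, and higher for 10 and lower for 2 (classical monocyte-like and B-like cells) in WT. Lineage make-up also differed, since phagocyte classes were 50.5% of cells in Nr4a1-/- laser and 34.9% in Nr4a1-/- control, and 47.6% in WT laser and 35.2% in WT control. With each control library's make-up held fixed (intervals here by a normal approximation on the log scale), the ratio of 8-gene shares was 3.06 (1.88 to 4.98) in Nr4a1-/- and 2.12 (1.54 to 2.91) in WT, and that of cycling shares 1.86 (1.32 to 2.61) in Nr4a1-/- and 1.79 (1.45 to 2.22) in WT. Holding the make-up fixed lowered each of the 4 ratios and left it above 1.

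**Figure D2:**
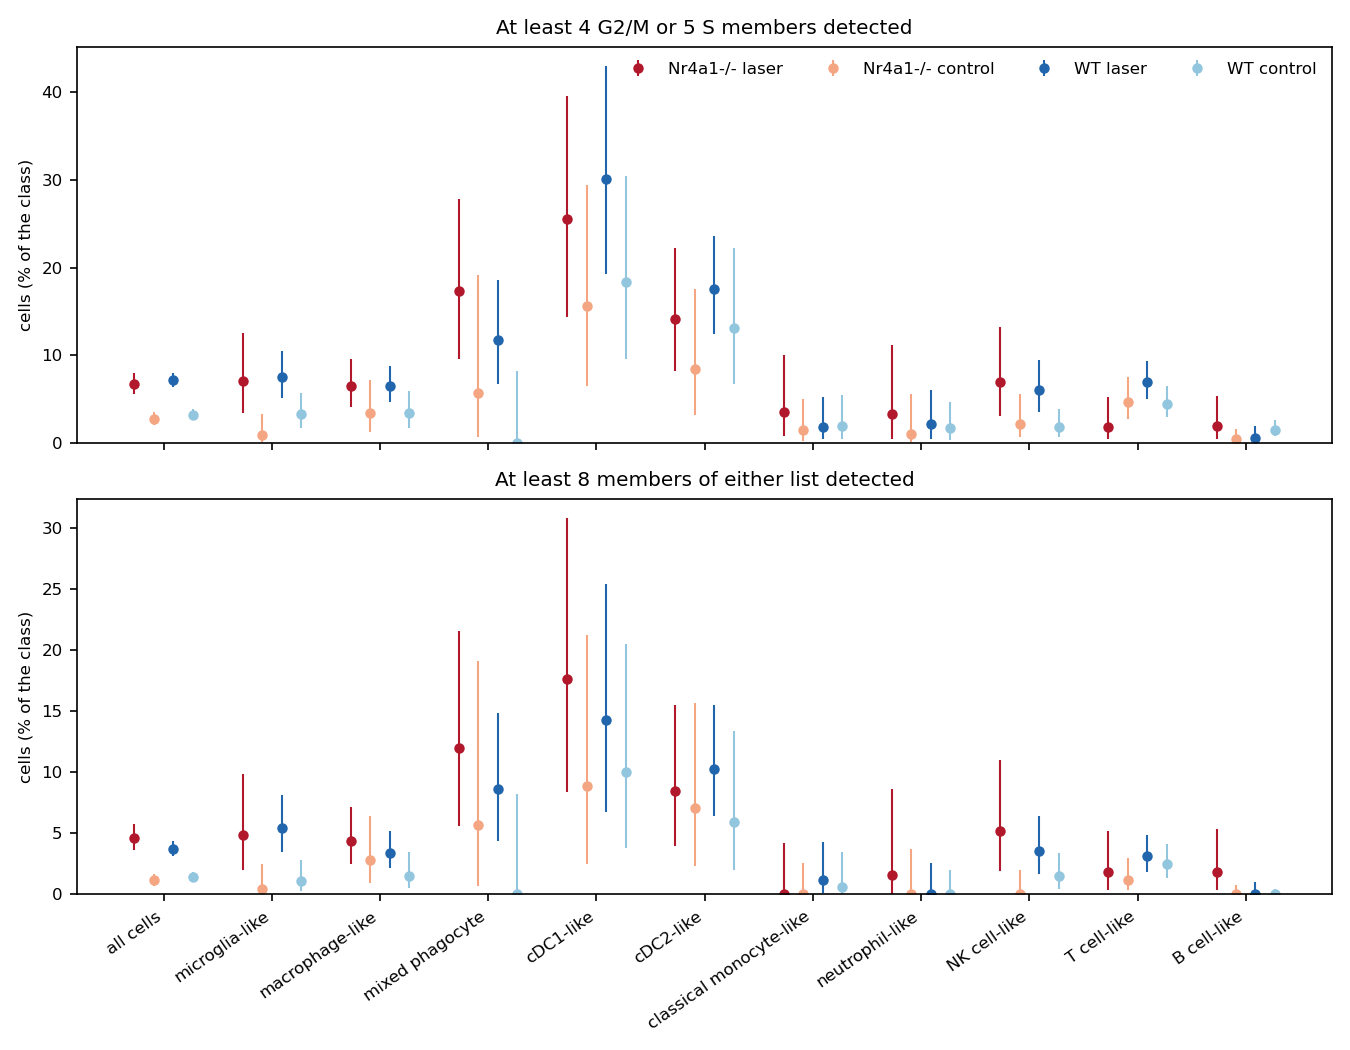
Share of cells (vertical axis, % of the class) that were cycling (upper panel) or 8-gene cells (lower panel) in all cells and in 10 marker-gated classes, by library, with points for the value and bars for the exact 95% interval of counting error. Of the classes shown, cDC1-like cells had the highest 8-gene share in each library, up to 17.6% in Nr4a1-/- laser. B-like and neutrophil-like cells had 0 in each library but Nr4a1-/- laser, where they had 1.85% and 1.61%.

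The S members were higher in the laser library of each genotype when summed, by less than the G2/M members. Summed S members were at 399 CPM in Nr4a1-/- laser, 328 CPM in WT laser, 288 CPM in Nr4a1-/- control and 275 CPM in WT control, a laser to control ratio of 1.39 (1.32 to 1.46) in Nr4a1-/- and 1.19 (1.16 to 1.23) in WT. Pcna, the clamp that holds DNA polymerase, was at 86.7 CPM in Nr4a1-/- laser and 95.4 CPM in Nr4a1-/- control, and at 97.8 CPM in WT laser and 80.6 CPM in WT control. Cdt1, which loads the helicase onto origins, was at 24.7 CPM in Nr4a1-/- laser and 31.3 CPM in Nr4a1-/- control, and at 27.4 CPM in WT laser and 26.7 CPM in WT control. Both were lower in laser in Nr4a1-/-. In WT, Pcna was higher in laser, whereas the Cdt1 intervals overlap (25.7 to 29.3 CPM in laser and 24.7 to 28.9 CPM in control).

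Of the helicase subunits named here, Mcm3 had a laser to control interval above 1 in both genotypes, Mcm6 in Nr4a1-/- alone and Mcm4 in neither. Mcm3 was at 31.8 CPM in Nr4a1-/- laser, 25.2 CPM in WT laser, 22.3 CPM in Nr4a1-/- control and 22.2 CPM in WT control. Mcm6 was at 29.3 CPM in Nr4a1-/- laser, 23.4 CPM in WT laser, 20.9 CPM in Nr4a1-/- control and 22.2 CPM in WT control. Mcm4 was at 21.9 CPM in Nr4a1-/- laser and 24.0 CPM in Nr4a1-/- control, and at 20.7 CPM in WT laser and 21.9 CPM in WT control, among the lowest ratios in both genotypes (0.909, 0.749 to 1.101, in Nr4a1-/- and 0.945, 0.842 to 1.06, in WT). Dut, which clears dUTP, was at 31.8 CPM in Nr4a1-/- laser, 26.0 CPM in WT laser, 22.2 CPM in Nr4a1-/- control and 20.9 CPM in WT control. Pclaf, a partner of Pcna, stood apart from the other S members, at 44.5 CPM in Nr4a1-/- laser and 7.09 CPM in Nr4a1-/- control, a ratio of 6.28 (4.99 to 7.99), and at 21.4 CPM in WT laser and 12.6 CPM in WT control.

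The G2/M members were higher in the laser library by more, above all in Nr4a1-/-. Summed, they were at 483 CPM in Nr4a1-/- laser, 294 CPM in WT laser, 208 CPM in Nr4a1-/- control and 235 CPM in WT control, a laser to control ratio of 2.32 (2.21 to 2.44) in Nr4a1-/- and 1.25 (1.21 to 1.29) in WT. A few cells carry much of this sum, since the 10 cells with the most G2/M UMIs held 26.7% of them in Nr4a1-/- laser and 18.2% in WT laser, against 35.9% in Nr4a1-/- control and 22.2% in WT control. Mki67 (chr7:135689784-135716361), which coats mitotic chromosomes and is the usual stain for dividing cells, was at 69.8 CPM in Nr4a1-/- laser, 35.4 CPM in WT laser, 24.5 CPM in Nr4a1-/- control and 27.8 CPM in WT control. Top2a, whose promoter is printed above, was at 71.2 CPM in Nr4a1-/- laser, 37.6 CPM in WT laser, 19.4 CPM in Nr4a1-/- control and 27.4 CPM in WT control. Both genes were highest in Nr4a1-/- laser and next in WT laser.

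The highest ratios belonged to Ccnb1 in Nr4a1-/- and Ccnb2 in WT. Ccnb1, the cyclin that activates Cdk1 for mitosis, was at 7.69 CPM in Nr4a1-/- laser, 3.23 CPM in WT laser, 1.06 CPM in Nr4a1-/- control and 1.94 CPM in WT control, and its ratio of 7.28 (4.01 to 14.1) was the highest of the 41 members in Nr4a1-/-. Birc5 (survivin, of the chromosomal passenger complex) was at 36.2 CPM in Nr4a1-/- laser, 15.7 CPM in WT laser, 6.86 CPM in Nr4a1-/- control and 8.76 CPM in WT control. Ccnb2, another mitotic B cyclin, was at 17.1 CPM in Nr4a1-/- laser, 10.5 CPM in WT laser, 4.75 CPM in Nr4a1-/- control and 4.67 CPM in WT control, and its ratio of 2.25 (1.81 to 2.81) was the highest of the 41 members in WT. Next in WT were Tpx2, a spindle assembly factor, with 1.85 (1.48 to 2.34), and Plk1, a mitotic kinase, with 1.84 (1.11 to 3.16). A B-type cyclin thus led in each genotype, and the genes next to it differed, with Pclaf and Birc5 in Nr4a1-/-.

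A pair of G2/M members, Cenpa and Kif23, stayed below 2-fold in Nr4a1-/- and had intervals below 1 in WT. In WT, Aurka was also not higher in laser, at 2.99 CPM against 3.07 CPM in control. Cenpa was at 59.6 CPM in Nr4a1-/- laser and 70.9 CPM in Nr4a1-/- control, a ratio of 0.842 (0.751 to 0.943), and at 65.1 CPM in WT laser and 70.0 CPM in WT control, a ratio of 0.931 (0.873 to 0.992). Kif23, a motor of the cytokinesis midbody, was at 21.3 CPM in Nr4a1-/- laser and 18.02 CPM in Nr4a1-/- control, and at 16.1 CPM in WT laser and 19.2 CPM in WT control, a WT ratio of 0.836 (0.737 to 0.949). Of the members in neither list, Stmn1, which destabilizes microtubules, was at 143 CPM in Nr4a1-/- laser, 86.2 CPM in WT laser, 58.0 CPM in Nr4a1-/- control and 61.6 CPM in WT control. Hmgb2, a chromatin protein, was at 322 CPM in Nr4a1-/- laser and 347 CPM in Nr4a1-/- control, and at 387 CPM in WT laser and 407 CPM in WT control.

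Counted over the whole set, 28 of the 41 members were at least 2-fold higher in Nr4a1-/- laser than in Nr4a1-/- control, against 3.51% of all 13697 genes with at least 20 UMIs in that pair. They were 20 of the 22 G2/M members, 7 of the 17 S members and Stmn1. In WT, 1 of 41 (Ccnb2) was at least 2-fold higher in laser, against 3.63% of 16275 genes. The median log2 ratio of the members was 1.27 in Nr4a1-/-, where that of all genes was -0.12, and 0.46 in WT, where that of all genes was -0.11. In each genotype 36 of 41 members had a log2 ratio above 0, and the interval lay above 1 for 34 members in Nr4a1-/- and 29 in WT. With the gene limit lifted and cells thinned to 2000 UMIs, 15 members in Nr4a1-/- and 10 in WT were at least 2-fold higher. Medians were then 0.92 in Nr4a1-/- and 0.58 in WT. Any member left with fewer than 20 UMIs over both libraries after thinning was not part of these counts and medians. The gap between genotypes in these counts thus depended on the cells, the depth and the members that passed. The share of all genes past 2-fold was not counted at this setting.

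**Figure D3:**
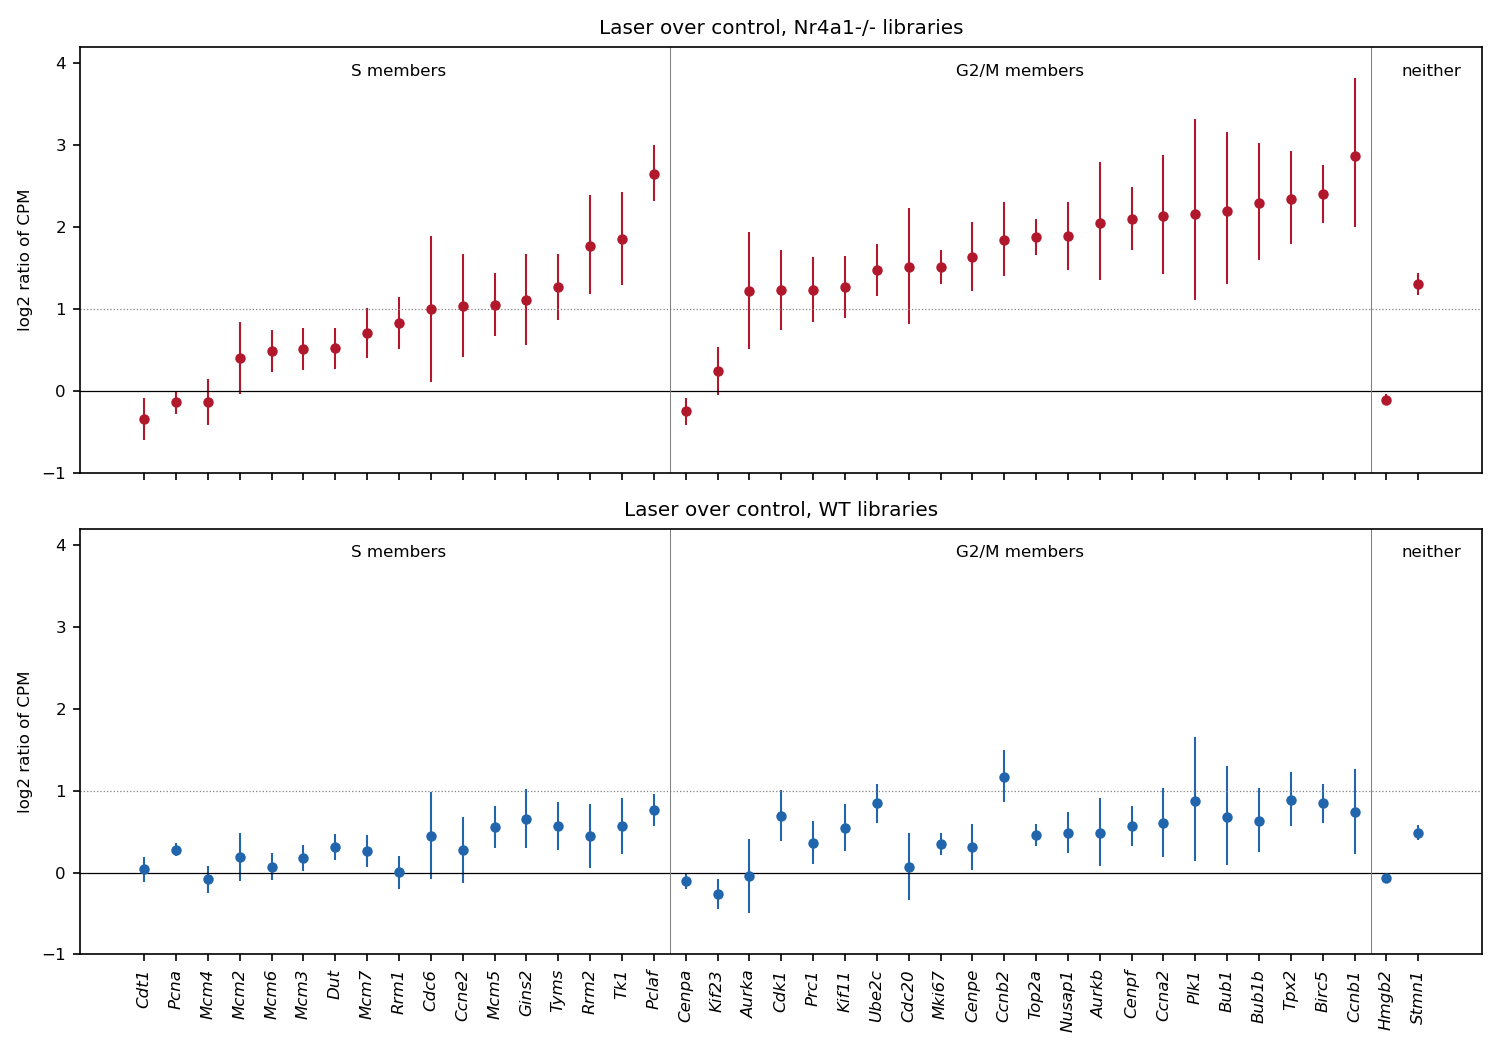
Log2 ratio of CPM, laser over control (vertical axis), for each of the 41 members in Nr4a1-/- libraries (upper panel) and WT libraries (lower panel), with bars for the exact 95% interval of counting error, a solid line at equal levels and a dotted line at 2-fold. Of the members, 28 lie at or above the dotted line in Nr4a1-/- and 1 in WT.

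The members differed in how far their UMIs were confined to 8-gene cells, judged for each gene by the other members alone. Over the 4 libraries, 93.9% of Ccna2 UMIs (90.6 to 96.3), 90.7% of Pclaf UMIs, 87.2% of Birc5 UMIs and 86.7% of Ccnb1 UMIs lay in such cells. Ccna2 encodes the cyclin of S phase and G2. The share was 76.7% for Top2a and 64.5% for Mki67. More than 50% of the UMIs lay in these cells for 18 of the 22 G2/M members and 4 of the 17 S members, with a median of 70.6% for G2/M and 38.1% for S members.

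The members at the low end were detected widely in cells that were not cycling. Only 7.29% of Cdt1 UMIs, 13.1% of Cenpa UMIs, 13.4% of Pcna UMIs, 18.9% of Mcm4 UMIs, 22.8% of Mcm6 UMIs, 25.4% of Kif23 UMIs and 26.2% of Hmgb2 UMIs lay in 8-gene cells. Among cells that were not cycling, Cenpa was highest in B-like cells (148 CPM) and lowest in microglia-like cells (8.29 CPM). Kif23 was highest in neutrophil-like cells (73.2 CPM), as was Hmgb2 (806 CPM). Mcm6 was highest in NK-like cells (67.5 CPM), Cdt1 in B-like cells (60.5 CPM), Mcm4 in T-like cells (38.6 CPM) and Pcna in macrophage-like cells (114 CPM). The members with the lowest laser to control ratios in either genotype were thus the same genes, Cdt1, Cenpa, Pcna, Mcm4, Kif23 and Hmgb2, that are among the 7 with the lowest shares in 8-gene cells. Their level in resting cells differed between lineages, and the part of lineage make-up in their ratios was not tested.

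**Figure D4:**
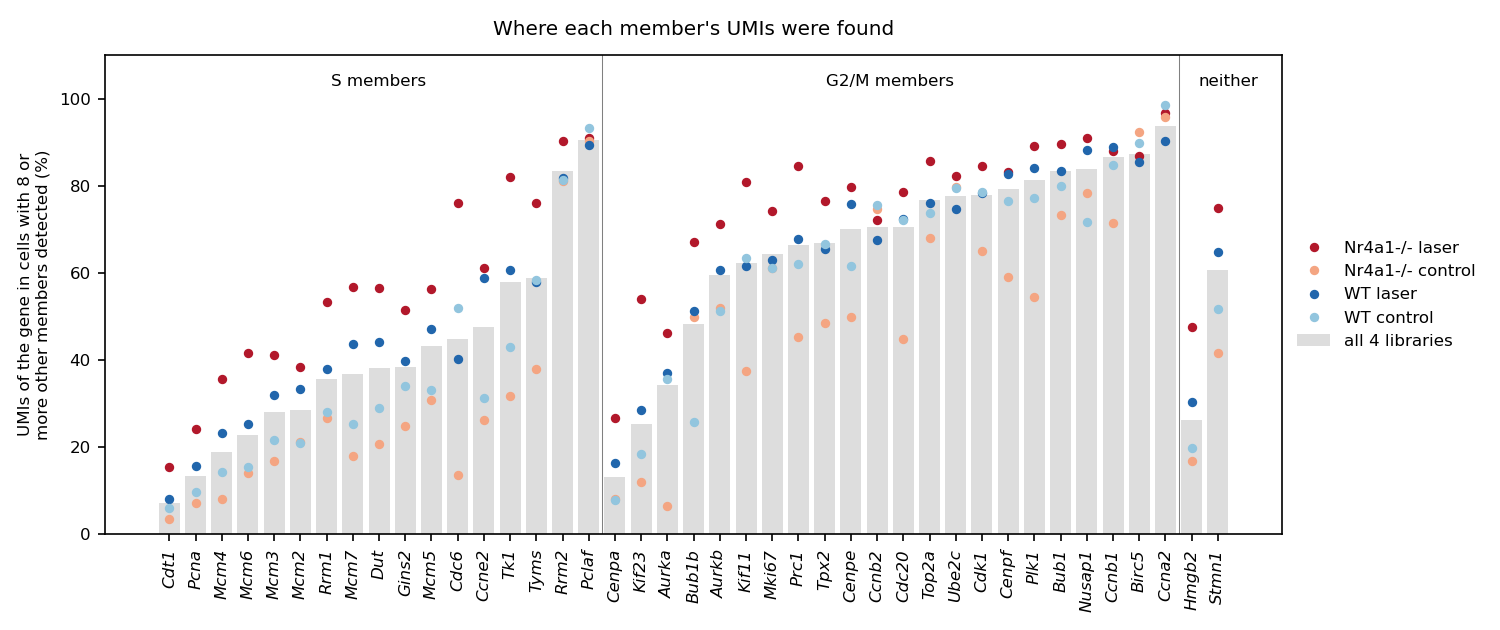
Share of each member's UMIs (vertical axis, %) found in cells with 8 or more other members of either list detected, as grey bars for the 4 libraries together and points for each library. The share ran from 7.29% for Cdt1 to 90.7% for Pclaf among S members and from 13.1% for Cenpa to 93.9% for Ccna2 among G2/M members.

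Within lineages, the G2/M members of microglia-like cells were higher in laser in both genotypes. They were at 436 CPM in Nr4a1-/- laser and 30.2 CPM in Nr4a1-/- control, a ratio of 14.4 (10.6 to 19.96), and at 293 CPM in WT laser and 162 CPM in WT control, a ratio of 1.81 (1.62 to 2.02). Few cells held most of these UMIs, with 79.0% in 7 8-gene cells in Nr4a1-/- laser and 77.8% in 22 in WT laser. In WT control 72.4% lay in 4 such cells, whereas Nr4a1-/- control had 50 UMIs in all and 1 such cell. The S members of microglia-like cells differed less, at 301 CPM in Nr4a1-/- laser and 263 CPM in Nr4a1-/- control and at 317 CPM in WT laser and 247 CPM in WT control. In WT microglia-like cells 13 of 35 members with at least 20 UMIs were at least 2-fold higher in laser, against 5.85% of 11038 genes. Ube2c was at 20.7 CPM in WT laser and 3.19 CPM in WT control (77 and 9 UMIs), Birc5 at 19.4 CPM in WT laser and 3.19 CPM in WT control (72 and 9 UMIs), and Cenpa at 29.9 CPM in WT laser and 9.56 CPM in WT control. In Nr4a1-/- microglia-like cells there were 12 Ube2c, 17 Birc5 and 20 Cenpa UMIs in laser and 2 Ube2c, 1 Birc5 and 2 Cenpa UMIs in control. Mki67 in microglia-like cells was at 76.6 CPM in Nr4a1-/- laser, 32.3 CPM in WT laser, 4.23 CPM in Nr4a1-/- control and 22.7 CPM in WT control.

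Macrophage-like cells showed less. Their G2/M members were at 352 CPM in Nr4a1-/- laser and 216 CPM in Nr4a1-/- control, a ratio of 1.63 (1.42 to 1.87), and at 193 CPM in both WT laser and WT control, a ratio of 1.00 (0.902 to 1.11). Here 8-gene cells held 75.1% of these UMIs in Nr4a1-/- laser and 54.1% in WT laser. They held 58.0% in Nr4a1-/- control and 57.0% in WT control. At least 2-fold higher in laser were 8 of 30 members in Nr4a1-/- macrophage-like cells, against 6.17% of 9261 genes, and 3 of 39 in WT macrophage-like cells, against 4.61% of 11246 genes. The share in WT is near that of all genes. Ccnb1 had 19 UMIs in Nr4a1-/- laser and 1 in Nr4a1-/- control, and 14 in WT laser and 12 in WT control. Pcna was lower in Nr4a1-/- laser macrophage-like cells, at 98.0 CPM, against 167 CPM in Nr4a1-/- control. As given above, this class held more cells of monocyte-derived type in laser, and the part of that in these values was not tested.

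In dendritic and NK-like cells the sums of UMIs also rest on a few cells. G2/M members of cDC2-like cells were at 726 CPM in Nr4a1-/- laser and 198 CPM in Nr4a1-/- control, and at 451 CPM in WT laser and 463 CPM in WT control. Those of cDC1-like cells were at 861 CPM in Nr4a1-/- laser and 343 CPM in Nr4a1-/- control, and at 399 CPM in WT laser and 613 CPM in WT control. In the WT pair the G2/M sum of cDC1-like cells was therefore lower in laser while the share of 8-gene cells was higher (14.3% in laser and 10% in control). S members of NK-like cells were at 1081 CPM in Nr4a1-/- laser, 495 CPM in WT laser, 377 CPM in Nr4a1-/- control and 386 CPM in WT control. The G2/M level of B-like cells in Nr4a1-/- laser, 687 CPM, came with 3 8-gene cells, and that of neutrophil-like cells, 726 CPM, with 1.

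S members were set against G2/M members within the same library. The ratio of S to G2/M UMIs was 0.828 (0.789 to 0.869) in Nr4a1-/- laser, 1.12 (1.09 to 1.15) in WT laser, against 1.39 (1.32 to 1.46) in Nr4a1-/- control and 1.17 (1.13 to 1.21) in WT control. Among 8-gene cells alone it was 0.571 (0.536 to 0.608) in Nr4a1-/- laser, 0.674 (0.647 to 0.702) in WT laser, against 0.563 (0.509 to 0.622) in Nr4a1-/- control and 0.593 (0.557 to 0.632) in WT control. Outside 8-gene cells it was 1.60 in Nr4a1-/- laser and 1.75 in WT laser, against 1.93 in Nr4a1-/- control and 1.69 in WT control. The libraries thus differed more in how many of their UMIs came from 8-gene cells than in the ratio within those cells. These cells held 75.0% of G2/M UMIs and 51.7% of S UMIs in Nr4a1-/- laser, 58.7% and 35.5% in WT laser, 39.7% and 16.1% in Nr4a1-/- control, and 47.1% and 23.9% in WT control.

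Split by list, 8-gene cells with 8 members of the S list only numbered 23 in Nr4a1-/- laser and 62 in WT laser, against 10 in Nr4a1-/- control and 15 in WT control. With 8 members of both lists there were 24 in Nr4a1-/- laser and 37 in WT laser, against 7 in Nr4a1-/- control and 17 in WT control. With 8 members of the G2/M list only there were 29 in Nr4a1-/- laser and 43 in WT laser, against 6 in Nr4a1-/- control and 20 in WT control. The S-only share was 30.3% (20.2 to 41.9) in Nr4a1-/- laser and 43.5% (23.2 to 65.5) in Nr4a1-/- control, and 43.7% (35.4 to 52.2) in WT laser and 28.8% (17.1 to 43.1) in WT control. These intervals overlap in each pair, and the difference itself was not tested. By UMIs, the S to G2/M ratio within 8-gene cells given above was higher in WT laser than in WT control, with intervals that do not overlap, whereas those of the Nr4a1-/- pair overlap. Among NK-like 8-gene cells, S only were 2 of 6 in Nr4a1-/- laser, 9 of 10 in WT laser and 3 of 5 in WT control.

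Between genotypes, the comparison changed with the cells and depth used. The Nr4a1-/- to WT ratio of cycling shares was 0.937 (0.743 to 1.17) in laser and 0.831 (0.592 to 1.15) in control, and that of 8-gene shares in laser was 1.23 (0.919 to 1.64). When each cell was thinned to 2000 UMIs, which left 1230 cells in Nr4a1-/- laser and 3545 in WT laser, 4.96% were cycling in Nr4a1-/- laser and 2.34% in WT laser, a ratio of 2.12 (1.496 to 2.98). In the controls the thinned ratio was 0.510 (0.245 to 0.987). At the same depth the laser to control ratio was 7.79 (4.15 to 15.9) in Nr4a1-/- and 1.88 (1.28 to 2.79) in WT. Of all 41 members, 8 were at least 2-fold higher in Nr4a1-/- laser than in WT laser, against 1.44% of 15278 genes, and 0 of 41 in Nr4a1-/- control against WT control, where 1.32% of 15284 genes were. In macrophage-like cells 15 of 40 members were at least 2-fold higher in Nr4a1-/- laser than in WT laser, against 2.68% of 11048 genes, with Ccnb1 at 9.21 CPM in Nr4a1-/- laser and 1.89 CPM in WT laser. In T-like cells the direction was the opposite, with 0 of 31 members at least 2-fold higher and 9 of 31 at least 2-fold lower in Nr4a1-/- laser than in WT laser, against 6.73% of 9757 genes lower. Their G2/M members were at 262 CPM in Nr4a1-/- laser and 478 CPM in WT laser, a ratio of 0.547 (0.454 to 0.655), and their cycling share was 1.80% in Nr4a1-/- laser and 6.91% in WT laser, a ratio of 0.260 (0.0515 to 0.816). The T-like ratio was 0.578 (0.109 to 1.98) by 8-gene shares and 0.609 (0.0672 to 2.65) in cells thinned to 2000 UMIs. Both of these intervals include 1. Over the 12 lineages the cycling share in laser was higher in Nr4a1-/- for 5 and lower for 7. The 2 comparisons within laser and within mutant share the Nr4a1-/- laser library.

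The upper limit of 5000 detected genes removed more cells from WT laser than from the other libraries, and 8-gene cells are larger. It removed 10 barcodes in Nr4a1-/- laser and 138 in WT laser, against 9 in Nr4a1-/- control and 33 in WT control, of which 5 in Nr4a1-/- laser and 86 in WT laser, against 6 in Nr4a1-/- control and 16 in WT control met the cycling rule. With these put back, 4.70% of cells were 8-gene cells in Nr4a1-/- laser and 5.01% in WT laser, against 1.23% in Nr4a1-/- control and 1.58% in WT control, and G2/M members were at 483 CPM in Nr4a1-/- laser and 408 CPM in WT laser. In WT, 6 of 41 members were then at least 2-fold higher in laser. When cells were also thinned to 2000 UMIs, 10 members in WT and 15 in Nr4a1-/- were, among those still with at least 20 UMIs. With the gene limit lifted, the share of all genes past 2-fold was not counted. Whether these barcodes were single cells was not tested.

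**Figure D5:**
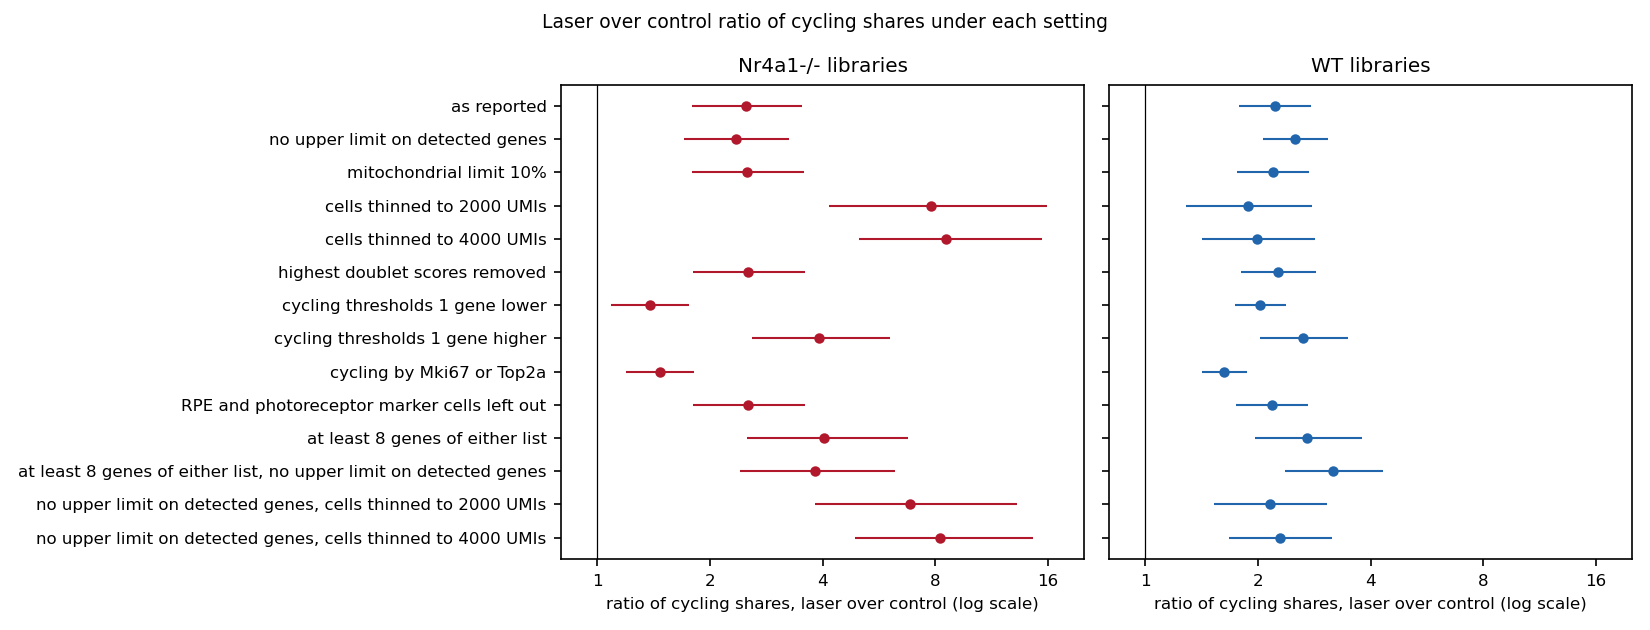
Ratio of cycling shares, laser over control (horizontal axis, log scale), in Nr4a1-/- libraries (left) and WT libraries (right), as reported and under each other setting, with bars for the exact 95% interval of counting error and a line at equal shares. All points lie to the right of the line, and those of Nr4a1-/- spread more widely (1.38 to 8.54) than those of WT (1.63 to 3.17).

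Other genes of the cycle were taken as lists of 101 genes that the cycling rule did not use. Genes of the replication fork and origin had 5 of 24 at least 2-fold higher in Nr4a1-/- laser and 0 of 24 in WT laser, against 3.51% and 3.63% of all genes. Cdc45, the helicase activator, was highest among them at 4.77 CPM in Nr4a1-/- laser and 1.13 CPM in Nr4a1-/- control, a ratio of 4.22 (2.25 to 8.30), followed by Uhrf1, which maintains DNA methylation, with 2.65. The most counted were Pola1, the primase-linked polymerase, with a ratio of 1.33 in Nr4a1-/- and 1.02 in WT, Dnmt1, a DNA methyltransferase, with 1.39 in Nr4a1-/- and 1.12 in WT, and Orc6, an origin subunit, with 1.02 in Nr4a1-/- and 0.963 in WT. All 24 genes were at least 2-fold higher in 8-gene cells than in cells that were not cycling, a comparison for which the share of all genes is not given here.

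Mitotic lists had more genes past 2-fold in Nr4a1-/- than in WT, read against the same 3.51% and 3.63% of all genes. At least 2-fold higher in Nr4a1-/- laser were 10 of 15 genes of condensin and spindle, 5 of 12 of kinetochore and checkpoint and 6 of 12 of cytokinesis and the anaphase-promoting complex, and in WT laser 0 of all 40 genes of these lists were. Kif20a, a cytokinesis motor, had 34 UMIs in Nr4a1-/- laser and 8 in Nr4a1-/- control, a ratio of 7.47 (3.39 to 18.7), and Nuf2, of the Ndc80 complex, had 32 and 9, a ratio of 6.25 (2.92 to 14.9). Hmmr and Spc24 had ratios of 5.64 and 5.09, and Cdca3 and Cdca8 of 5.51 and 3.03. The most counted genes of these lists had lower ratios, with 0.723 in Nr4a1-/- and 0.650 in WT for Smc4, 0.724 in Nr4a1-/- and 0.691 in WT for Ndc80, and 0.655 in Nr4a1-/- and 0.905 in WT for Cks2. Hmmr was 363 times as high in 8-gene cells as in cells that were not cycling, the highest value of the lists, and Zwint, Fzr1 and Pttg1 were the genes below 2-fold there. The share of all genes past 2-fold in that comparison is not given here.

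Genes that act before S phase were read against the same shares of all genes. Of the G1 cyclins and kinases, 1 of 8 was at least 2-fold higher in Nr4a1-/- laser (Ccne1, the cyclin of the G1 to S step, with 2.78) and 0 of 8 in WT laser. Ccnd3, the D-type cyclin of lymphoid cells, was at 115 CPM in Nr4a1-/- laser and 186 CPM in Nr4a1-/- control, and at 133 CPM in WT laser and 216 CPM in WT control. Of the E2F and Rb factors, 3 of 13 were at least 2-fold higher in Nr4a1-/- laser (Mybl2 with 3.52, E2f8 with 2.20 and E2f7) and 0 of 13 in WT laser. Cdkn1a, the p53-induced inhibitor p21, was at 374 CPM in Nr4a1-/- laser and 250 CPM in Nr4a1-/- control, and at 402 CPM in WT laser and 265 CPM in WT control, whereas Cdkn1b, the inhibitor p27 of resting cells, was at 64.5 CPM in Nr4a1-/- laser and 116 CPM in Nr4a1-/- control, and at 75.1 CPM in WT laser and 125 CPM in WT control. Of the CDK inhibitors, 1 of 6 was at least 2-fold higher in Nr4a1-/- laser (Cdkn3) and 1 of 8 in WT laser (Cdkn2b). Of the 8 quiescence and p53 genes, 0 were at least 2-fold higher in laser in either genotype, with Mdm2 highest at 1.73 in Nr4a1-/- and 1.80 in WT.

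Stmn1 and Hmgb2, which the call did not use, were higher in 8-gene cells of every library. Stmn1 was 30.7 times as high as in cells that were not cycling in Nr4a1-/- laser, 29.3 times in WT laser, against 27.1 times in Nr4a1-/- control and 35.4 times in WT control, and Hmgb2 was 5.93 times as high in WT laser and between 7.33 and 7.65 times in the other libraries. The median RNA UMIs of 8-gene cells were 10743 against 3462 in Nr4a1-/- laser, 16641 against 7257 in WT laser, 15916 against 5396 in Nr4a1-/- control and 14472 against 5119 in WT control. Cells with more UMIs pass a count of detected genes more readily, and the part of depth in this difference was not tested beyond the thinned counts above. Median doublet scores were also higher in 8-gene cells, 0.0628 against 0.0273 in Nr4a1-/- laser and 0.0284 against 0.0196 in WT laser. The transferrin receptor, often higher in dividing cells, differed between libraries, with CD71 ADT at 0.103% of ADT counts in 8-gene cells and 0.0968% in other cells of Nr4a1-/- laser, 0.294% and 0.0908% in WT laser, 0.136% and 0.141% in Nr4a1-/- control, and 0.136% and 0.126% in WT control. A few cells carried much of the WT laser value. Its 22 microglia-like 8-gene cells had a mean of 12.8 CD71 counts but a median of 0, against a mean of 2.84 over all its 8-gene cells. The RNA of this receptor, Tfrc, was 1.58 times (1.02 to 2.36) as high in 8-gene cells of Nr4a1-/- laser, 1.05 times in WT laser, 0.922 times in Nr4a1-/- control and 0.674 times in WT control.

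Lineage markers are given as levels, since the classes were gated on them and detection follows depth. In microglia-like cells over the 4 libraries, Tmem119 was 0.694 times (0.559 to 0.851) and P2ry12 0.458 times (0.382 to 0.546) as high in the 34 8-gene cells as in 1077 cells that were not cycling. Cdkn1a was 2.78 times (2.48 to 3.12) and Cdkn2c, an inhibitor of Cdk4 and Cdk6, 13.8 times (7.12 to 26.1) as high in 8-gene microglia-like cells. In macrophage-like cells Ccnd1 was 1.96 times and Cdkn2c 9.13 times as high, and Lyve1 0.392 times and Mrc1 0.577 times. In T-like cells Myc was 6.80 times, Gzmb, a cytotoxic protease, 2.33 times and Cd8a 1.71 times as high, whereas in NK-like cells Gzmb was 0.972 times. The Cdkn2c ratio was above 1 in all 6 lineages examined, with an interval that includes 1 in NK-like cells.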

How the data were processed

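Live CD45+ cells of 4 groups were profiled by droplet RNA sequencing with antibody tags, 1 RNA and 1 tag library per group. The authors deposited raw UMI counts per gene and cell, and counts of 87 antibody tags, made with Cell Ranger 7.0.1 on mm10 per the study's methods. The methods name a v3 kit and the labels v2. Tag samples, whose labels all read Nr4a1-/- without laser, were assigned by title. Members and lists were chosen with earlier results of these data known.

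Following the methods, barcodes were retained when between 200 and 5000 genes had a UMI and mitochondrial genes held no more than 15% of UMIs. Doublets were not removed, because Scrublet's automatic threshold marked 4 cells in Nr4a1-/- laser and 2 in WT laser, against 11 in Nr4a1-/- control and 0 in WT control; an alternative removed the highest scores. Lineages were gated by mean scaled scores of 23 marker lists (score at least 0.5, lead at least 0.2). Ungated cells whose leading 2 lists were both phagocyte lists formed the mixed phagocytes. With 1 library per group no test between groups was possible, and no p-value is given. Shares have exact Clopper-Pearson intervals, sums exact Poisson intervals and ratios exact conditional binomial intervals. A count of 0 was read as allowing up to 3 counts. Levels are CPM of summed counts, log2 ratios used 0.5 UMI added, and only genes with at least 20 UMIs over both libraries were counted against the 2-fold limit. For depth, each cell was thinned to 2000 (or 4000) UMIs and shallower cells were left out.

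Genes named are the 5 S and 5 G2/M members with most UMIs, the 3 highest and 3 lowest laser to control ratios per genotype and, of each other list, up to 3 genes with most UMIs and the 2 largest ratios; further genes were chosen after their values were seen. Scripts were tested on simulated data. Clustering and doublet scores used scanpy 1.11.5, intervals scipy 1.17.1, tables pandas 2.3.3 and numpy 2.4.6, and plots matplotlib 3.10.9, under Python 3.11.15.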

Additional observations from a re-analysis of the deposited data

Results flagged for a closer look

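In 3 of the lineages with at least 50 cells in every library, the cycling share was higher in laser in one genotype and lower in the other, and none of these differences was tested. The laser to control ratio was 2.51 in Nr4a1-/- and 0.946 in WT classical monocyte-like cells, 0.383 in Nr4a1-/- and 1.56 in WT T-like cells, and 4.38 in Nr4a1-/- and 0.358 in WT B-like cells. They rest on few cells, such as 3 of 162 B-like cells in Nr4a1-/- laser and 2 of 473 in Nr4a1-/- control. Migratory DC-like cells, with fewer cells, also differed in direction, with 1 of 29 in Nr4a1-/- laser and 1 of 7 in Nr4a1-/- control, and 7 of 63 in WT laser and 0 of 20 in WT control.

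Barcodes with more than 5000 detected genes, left out of the comparisons, often met the cycling rule. Of these, 50% did in Nr4a1-/- laser and 62.3% in WT laser, against 66.7% in Nr4a1-/- control and 48.5% in WT control.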

How the results depend on the processing

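Of 196 alternative values, 109 moved by less than their counting interval, 87 by more, and 0 turned a called direction. The laser to control ratio of cycling shares over all cells, and that with lineage make-up held fixed (here "within lineages"), stayed above 1 under the alternatives run, from 1.14 to 11.3; ratios of single lineages did not all do so. The 8-gene count, alone or with no gene limit, and the removal of that limit with thinning were chosen after seeing the data. Thinned to 2000 UMIs, the pooled Nr4a1-/- ratio was 7.79, that within lineages 6.42, Nr4a1-/- over WT 2.12 in laser and 0.510 in control, the members' median log2 ratio 0.90 in Nr4a1-/-, and 15 members in Nr4a1-/- and 3 in WT were past 2-fold. Thinned to 4000 UMIs, the pooled Nr4a1-/- ratio was 8.54, that within lineages 11.3, and Nr4a1-/- over WT in laser 2.56. With thresholds 1 gene lower, the Nr4a1-/- ratio was 1.38 pooled and 1.14 within lineages, and Nr4a1-/- over WT in laser 0.706. With thresholds 1 gene higher, the Nr4a1-/- ratio was 3.91 pooled and 2.89 within lineages. Counting cells with Mki67 or Top2a gave 1.47 pooled and 1.20 within lineages in Nr4a1-/-, and 1.63 pooled and 1.38 within lineages in WT. The 8-gene count gave 4.05 pooled and 3.06 within lineages in Nr4a1-/-, and 1.23 for Nr4a1-/- over WT in laser; with no gene limit it gave 3.82 pooled and 2.92 within lineages in Nr4a1-/-, and 3.17 pooled and 2.45 within lineages in WT. With no gene limit, the members' median in WT was 0.74 and 6 were past 2-fold. With no limit and 2000 UMIs, the Nr4a1-/- ratio was 6.87 pooled and 5.78 within lineages, Nr4a1-/- over WT 1.64 in laser and 0.513 in control, the median 0.92 in Nr4a1-/- and 0.58 in WT, and 15 members in Nr4a1-/- and 10 in WT were past 2-fold. With no limit and 4000 UMIs, the Nr4a1-/- ratio was 8.22 pooled and 10.9 within lineages, and Nr4a1-/- over WT 2.01 in laser and 0.558 in control. The cause of these changes was not tested, and the share of all genes past 2-fold was not counted under the alternatives. No paired analysis was possible because each group is 1 library.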
